A study of Mus musculus with 20 samples.

Results

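The 9 genes Cs, Idh2, Idh3a, Idh3b, Idh3g, Ogdh, Sucla2, Fh1 and Mdh2 encode enzymes, or subunits of enzymes, of the tricarboxylic acid cycle, and were taken by symbol from the 25052 genes listed for each library. All 9 passed the filter on low values that left 12775 genes for testing. Frozen left ventricle of male mice gave the poly(A) RNA that was sequenced in 20 libraries (RT1 to RT20), with 5 in each of 4 combinations of genotype and diet. The study asked how loss of ACC2, the acetyl-CoA carboxylase that makes malonyl-CoA at mitochondria and is encoded by Acacb, changes the heart on chow and on a high-fat diet. All mice carried floxed ACC2 alleles (ACC2 f/f) and all received tamoxifen when 8 weeks old, at 20 mg/kg on 5 days. The iKO mice also carried MerCreMer, a Cre recombinase switched on by tamoxifen, and the mice called WT here and in the labels lacked it. The diets began 4 weeks after tamoxifen and lasted 16 weeks, either chow or D12492 of Research Diets, which is high in fat (HFD). The promoter that drives the Cre is not given in the sources used here, and no group carried the Cre without floxed alleles, so loss of ACC2 and presence of the Cre cannot be told apart. Libraries RT1 to RT10 were all from chow and RT11 to RT20 all from HFD, so library number and diet cannot be told apart either.

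The cycle runs in the mitochondrial matrix and oxidises the acetyl group of acetyl-CoA to carbon dioxide, passing electrons to NADH and FADH2 for the respiratory chain. In the heart most acetyl-CoA comes from fatty acids, with the rest from pyruvate, ketone bodies and amino acids. Citrate synthase (Cs) joins acetyl-CoA to oxaloacetate, isocitrate dehydrogenases (the NAD-linked Idh3 complex and the NADP-linked Idh2) and the oxoglutarate dehydrogenase complex (Ogdh is its E1 subunit) release carbon dioxide, and succinyl-CoA synthetase (Sucla2 is its ADP-linked beta subunit), fumarase (Fh1) and malate dehydrogenase (Mdh2) carry succinyl-CoA back to oxaloacetate. The 9 genes lie on 9 chromosomes of GRCm38, matched by identifier, and the identifiers of Cs and Idh3a carry another version number in that annotation. Their spans are chromosome 10, 128337734 to 128362479 for Cs, chromosome 7, 80094846 to 80115392 for Idh2, chromosome 9, 54586334 to 54604661 for Idh3a, chromosome 2, 130279309 to 130284547 for Idh3b and chromosome X, 73778963 to 73786897 for Idh3g. The span of Ogdh is chromosome 11, 6291633 to 6356642, that of Sucla2 chromosome 14, 73525319 to 73596142, that of Fh1 chromosome 1, 175600374 to 175625635 and that of Mdh2 chromosome 5, 135778480 to 135790398.

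Acacb was at 34.9 to 41.9 FPKM (fragments scaled by transcript length and by mapped reads) in the 10 WT libraries and at 8.37 to 11.9 in the 10 iKO libraries, which fits the labels in every library. Depth, as estimated reads assigned to genes, was lowest in RT7 (iKO, chow) at 12.6 M and highest in RT18 (WT, HFD) at 31.9 M. The stated depth, 50 M for every library, is above these estimates, and the difference was not examined. By group it averaged 21.3 M ± 1.32 (SD, n = 5) for WT and 19.9 M ± 4.88 for iKO on chow, and 27.9 M ± 3.39 for WT and 23.1 M ± 3.86 for iKO on HFD. The log2 values of any pair of libraries correlated at 0.983 to 0.996. All 9 cardiomyocyte markers were present in every library, with Myh6 at 2124 to 2899 FPKM. Their summed FPKM was 38044 to 39239 for WT and 37730 to 42323 for iKO on chow, with RT7 highest, and 30857 to 38224 for WT and 32336 to 34507 for iKO on HFD. The sum of 4 atrial muscle genes reached 691 FPKM in WT chow library RT1 and 358 in iKO chow library RT4, against at most 115 in the HFD libraries. The sum of 8 fibroblast genes was higher at the median in iKO, 483 FPKM against 377 in WT on chow and 612 against 383 on HFD, and reached 832 in RT4, and the ranges of WT and iKO overlapped on both diets. That of 5 macrophage genes had medians of 58.5 FPKM in iKO against 44.8 in WT on chow and of 51.8 against 42.8 on HFD, also with overlap. Of 6 adipocyte markers 5 were listed. Adipoq was at most 0.53 FPKM, Cidec 0.47, Plin1 0.18 and Lep 0.04, whereas Cidea, a lipid droplet protein, was at 15.4 to 26.5 FPKM. The adipocyte sum had medians of 18.4 FPKM for WT and 16.2 for iKO on chow, and of 21.7 and 22.05 on HFD. Cidea, the one of that list that was tested, was higher with HFD over both genotypes, by 0.33 on the log2 scale. In bulk tissue, fewer cells of a type and less RNA per cell cannot be told apart, and the part of these differences in the results below was not tested.

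Promoter sequences are shown for Idh2, the member with the largest differences, and for Cs and Sucla2. Cs was the member whose level followed that of Idh2 most closely between libraries. Sucla2 was the other member with a called diet difference. Each sequence is the 250 bases before the RefSeq start, on GRCm38.p6, read 5′ to 3′ on the strand of the gene. RefSeq starts were not always the starts of the annotated spans given above. The Sucla2 window lies inside its span, downstream of the annotated start at 73525319. The Idh2 window overlaps its span in part, as do those of Idh3b and Mdh2 counted below. Capitals mark matches, on either strand, to any of the motifs searched.
Idh2, chr7:80115351-80115600, minus strand: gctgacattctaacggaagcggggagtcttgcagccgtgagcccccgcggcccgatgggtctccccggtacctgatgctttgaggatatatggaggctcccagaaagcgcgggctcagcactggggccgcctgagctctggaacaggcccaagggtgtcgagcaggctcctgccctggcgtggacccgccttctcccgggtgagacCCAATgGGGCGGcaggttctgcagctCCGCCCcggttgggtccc
Cs, chr10:128337477-128337726, plus strand: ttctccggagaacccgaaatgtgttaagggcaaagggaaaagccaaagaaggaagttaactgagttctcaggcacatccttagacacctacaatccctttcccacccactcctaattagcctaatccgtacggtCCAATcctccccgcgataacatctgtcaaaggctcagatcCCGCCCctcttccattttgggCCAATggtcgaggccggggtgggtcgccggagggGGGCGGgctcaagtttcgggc
Sucla2, chr14:73552536-73552785, plus strand: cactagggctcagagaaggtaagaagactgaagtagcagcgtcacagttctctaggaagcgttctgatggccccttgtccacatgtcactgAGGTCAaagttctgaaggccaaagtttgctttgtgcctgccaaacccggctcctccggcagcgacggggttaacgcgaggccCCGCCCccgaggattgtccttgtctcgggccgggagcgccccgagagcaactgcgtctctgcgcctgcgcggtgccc
The Idh2 window is 67.2% G and C, the Cs window 55.2% and the Sucla2 window 61.2%, against a median of 52% over 27025 RefSeq promoters of the same length (quartiles 44.8% and 60.8%). RefSeq entries were found for 8 of the 9 genes, with Idh3a the one without. Ogdh has 6 RefSeq starts, and counts here take the first listed start of each gene. The GC box GGGCGG was in 5 of the 8 promoters (Cs, Fh1, Idh2, Mdh2 and Sucla2) and in 32.9% of all promoters, and CCAAT was in 5 (Cs, Fh1, Idh2, Idh3b and Ogdh) and in 34.5%. The nuclear receptor half-site AGGTCA was in 2 (Fh1 and Sucla2) and in 13.8%, and the ETS-type motif CCGGAAG in 1 (Idh3g) and in 7.05%. TCAAGGTCA, the extended site of oestrogen-related receptors, which holds AGGTCA within it, was in 0 of 8 and in 0.366% of all promoters. GCGCATGCG, the core of the NRF1 motif, was in 0 of 8 and in 1.49%. Over the 6 starts of Ogdh, of which the first holds neither, GGGCGG lay before 2 and GCGCATGCG before 2 others. A match is a run of letters and does not show that a factor binds there.

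Cycle enzyme messages were abundant and ordered alike in the 4 groups. FPKM is scaled by transcript length, so levels can be set beside each other between genes. The FPKM of Idh3a and of Cs rest on 1 listed transcript each, those of Idh3b on 4 and of Idh3g on 9. The effect of this on the levels was not tested. Idh2, the NADP-linked isocitrate dehydrogenase that supplies mitochondrial NADPH, was the highest of the 9 in WT chow hearts at 1007 FPKM ± 44.6 (SD, n = 5). By mean over the WT chow libraries it ranked 56th among the 12775 tested genes. Mdh2 followed at 725 ± 15.1, Ogdh at 587 ± 19.7, Cs at 470 ± 8.85, Sucla2 at 360 ± 18.04, Idh3b at 322 ± 16.6, Idh3g at 289 ± 9.78, Idh3a at 206 ± 8.89 and Fh1 at 153 ± 3.605. No neighbours in that order overlapped in WT on chow, where all 5 libraries of each gene were above all 5 of the next. The order of the 9 was the same in the other 3 groups. There the libraries of Sucla2 and Idh3b overlapped in iKO hearts on either diet, and those of Idh3b and Idh3g in both HFD groups. The catalytic alpha subunit Idh3a was thus lower in FPKM than the Idh3b and Idh3g subunits it works with.

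**Figure D1:**
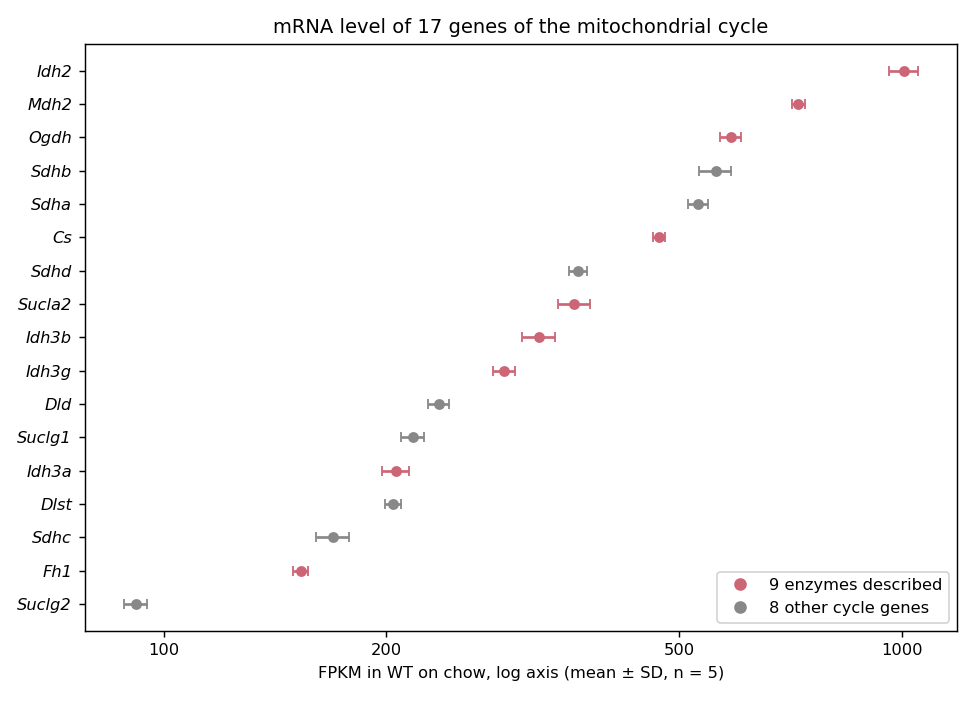
Mean level in WT on chow, in FPKM on a log axis with SD over 5 libraries, of the 9 enzymes and of 8 other genes of the mitochondrial cycle. Idh2 at 1007 FPKM stands above Mdh2 at 725, and Fh1 at 153 is the lowest of the 9 enzymes.

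Other genes of the mitochondrial cycle had levels in the same range. Sdhb, the iron-sulphur subunit of succinate dehydrogenase, was at 559.5 FPKM ± 27.9 (SD, n = 5, WT chow), and Suclg2, the GTP-linked beta subunit of succinyl-CoA synthetase, at 91.7 ± 3.20. The ranges of Ogdh and Sdhb overlapped, as did those of Idh3a and both Suclg1, the alpha subunit of succinyl-CoA synthetase, and Dlst, the E2 subunit of the oxoglutarate dehydrogenase complex. Cytosolic and related counterparts differed more in level. Cytosolic Mdh1 was at 810 FPKM ± 16.2 in WT on chow, close to Mdh2, whereas cytosolic Idh1 was at 25.6 ± 2.08, Aco1, the cytosolic aconitase that also binds iron-responsive elements, at 7.72 ± 0.427, and Ogdhl, an oxoglutarate dehydrogenase-like protein, at 42.5 ± 4.32. Dhtkd1, an E1 subunit that acts on oxoadipate, was at 1.43 ± 0.487. A further counterpart, Csl, was not analysed here.

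The members varied little within a group. Over 36 values (9 genes in 4 groups) the coefficient of variation ran from 1.78% to 10.4% with a median of 4.37%, and the highest was that of Idh2 in iKO on chow. Its median over the 520 tested genes with a mean of at least 100 FPKM was 5.45%. Library RT7, the one with the fewest estimated reads, stood high in iKO on chow. It held the highest of all 20 values for 5 of the 9 genes (Cs, Idh2, Idh3b, Idh3g and Mdh2), was above the rest of its group for 7 of 9, and was a median of 10.6% above the mean of the rest. For Idh2 it was 21.3% above. Together the 9 genes took 0.503% ± 0.00816 (SD, n = 5) of all FPKM for WT and 0.482% ± 0.0329 for iKO on chow, and 0.462% ± 0.0235 for WT and 0.453% ± 0.0124 for iKO on HFD.

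**Figure D2:**
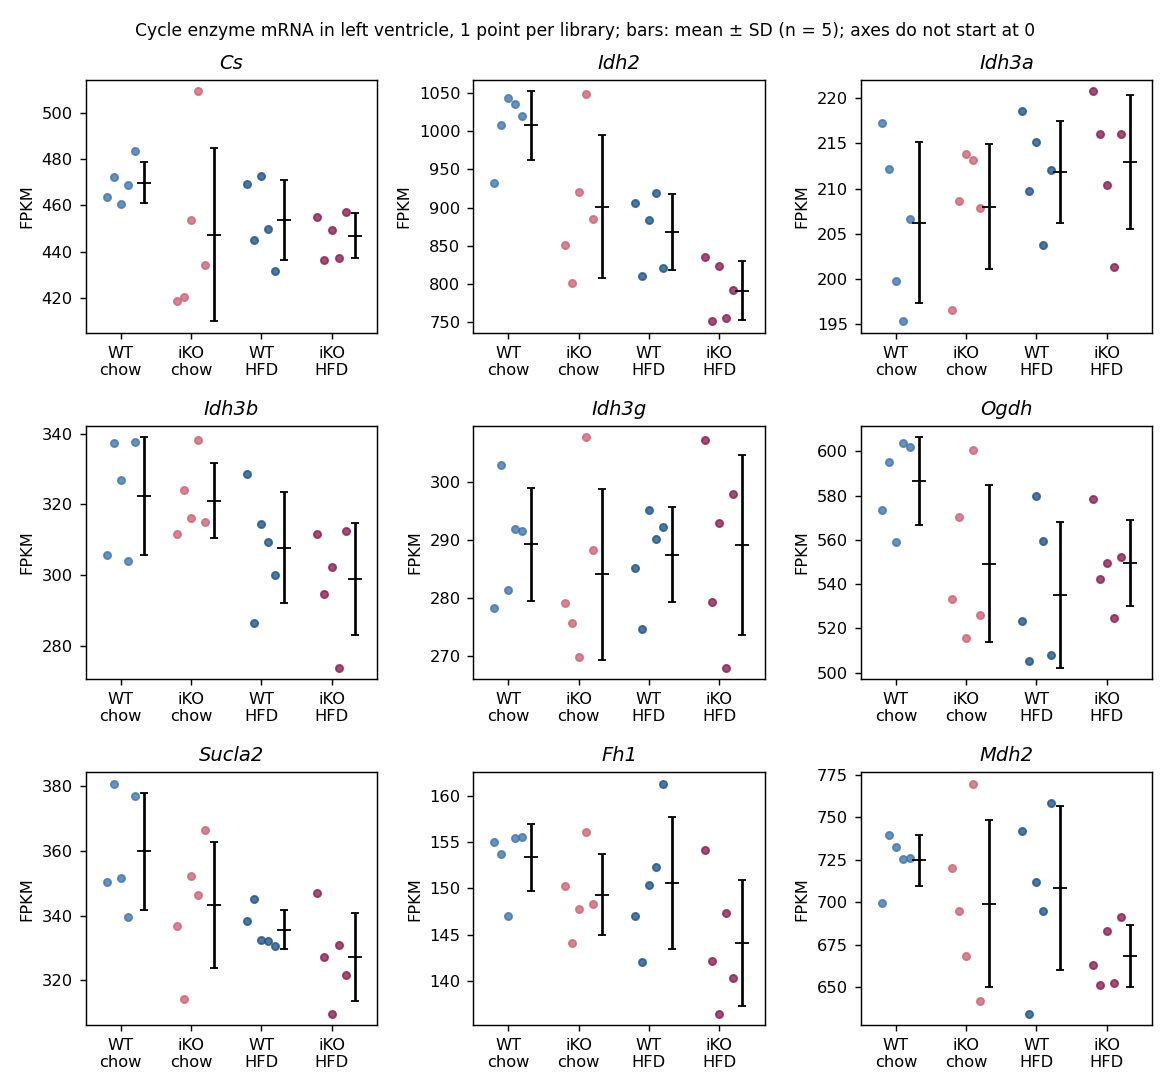
FPKM of each enzyme in every library (points) with mean and SD (n = 5) by group; the vertical axes do not start at 0. Idh2 steps down from a mean of 1007 in WT on chow to 791 in iKO on HFD, and the high iKO chow point for Cs, Idh2, Idh3b, Idh3g and Mdh2 is RT7.

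Idh2 was the member that differed most. Its FPKM in WT on chow was 931, 1007, 1043, 1035 and 1019 (RT1, RT3, RT5, RT8 and RT10). In iKO on chow it was 850.5, 801, 919.6, 1048 and 885 (RT2, RT4, RT6, RT7 and RT9). In WT on HFD it was 906, 811, 883, 919 and 821 (RT12, RT14, RT16, RT18 and RT19). In iKO on HFD it was 835, 751, 824, 755 and 792 (RT11, RT13, RT15, RT17 and RT20). All 5 WT HFD libraries were below all 5 WT chow libraries, whereas in the other 3 pairings of groups by genotype or diet the libraries overlapped.

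HFD feeding went with lower Idh2 mRNA in both genotypes. In WT the log2 fold change of HFD against chow was -0.21 ± 0.058 (SE), or -13.8%, with an adjusted p of 0.0258 by limma, and Idh2 was the 1 of 9 members called lower, beside 7.27% of all tested genes. Without overlap in that direction were 9.99% of tested genes. In iKO it was -0.18 ± 0.058, or -11.9%, with an adjusted p of 0.0482 by limma, again 1 of 9 called lower, beside 8.36% of all tested genes. By limma 0 of 9 were called higher with HFD in WT, beside 0.767% of all tested genes, and 0 of 9 in iKO, beside 1.65%, while 3 of 9 in WT (Idh2, Ogdh and Sucla2) and 2 of 9 in iKO (Idh2 and Idh3b) had an unadjusted p under 0.05, beside 25.6% and 25.7% of all tested genes. With both genotypes combined, the change of Idh2 was -0.20 ± 0.041, or -12.9%, with an adjusted p of 0.00143 by limma. This is the diet difference over both genotypes, for which 2 of 9 members (Idh2 and Sucla2) were called lower beside 23.3% of all tested genes. In both WT and iKO, 1 of 9 members called is near the share of all genes called, and the same holds for 2 of 9 in the combined comparison.

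The fall of Idh2 with diet depends on how libraries are scaled. The median gene moved by -0.08 on the log2 scale with HFD in WT and by -0.07 in iKO. Scaling each library by the median of gene ratios brought it to -0.0032 in WT and -0.0048 in iKO, and upper-quartile scaling to 0.0092 and -0.0019. The scale factors themselves differed between diets by 0.10 in WT and 0.08 in iKO for the first and by 0.12 and 0.09 for the second, which is the shift of an abundant gene. With these scalings Idh2 was at -0.11 (adjusted p 0.474 by limma) and -0.10 (0.614) in WT, at -0.10 (0.507) and -0.09 (0.588) in iKO, and at -0.11 (0.185) and -0.10 (0.296) over both genotypes. It remained negative in all 6 and was called in none. In the same scalings the split of all genes called over both genotypes went from 326 higher and 2973 lower to 668 and 657 with the median of ratios and to 736 and 558 with the upper quartile. The WT call was also lost with no filter on low values (0.0633), and the iKO call was kept in 4 of 10 alternatives. With 1 library left out, the WT call was lost without RT3, RT5, RT8, RT10, RT14 or RT19, with a highest adjusted p of 0.0672 by limma. In iKO it was kept only without RT1, RT2, RT4, RT14 or RT19, and reached 0.137 otherwise. Over both genotypes it was kept without each of the 20 in turn.

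Idh2 was also lower in iKO than in WT when both diets were combined. This difference was -0.15 ± 0.041 (SE) on the log2 scale, or -9.83% with a 95% interval of -15% to -4.36%, and its adjusted p was 0.0396 by limma. Idh2 was the 1 of 9 members called, beside 1.16% of all tested genes called lower. The median of all genes moved the other way, by 0.06, and under the median-of-ratios and upper-quartile scalings the change of Idh2 was -0.21 (adjusted p 0.015 by limma) and -0.24 (0.0142). The call was lost with no filter on low values (0.091), without both the variance trend and robust moderation (0.0579) and without RT1 and RT4 together (-0.14, 0.0521). It was lost also without RT2, RT3, RT4, RT5, RT8, RT10, RT12, RT13, RT16, RT17 or RT18 alone, where the change lay between -0.15 and -0.13 and the adjusted p between 0.059 and 0.078 by limma.

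Within 1 diet the genotype difference of Idh2 was of like size and not called. On chow it was -0.17 ± 0.058 (SE), or -10.8%, with an adjusted p of 0.208 by limma, and 4 of the 5 iKO libraries lay below all 5 WT libraries, with RT7 above them. Without RT7 it was -0.22 with an adjusted p of 0.0306, the 1 call among the 20 runs with 1 library left out. Over those runs it lay between -0.22 and -0.12, with adjusted p up to 0.481 by limma. In the 10 other alternatives it was not called, with adjusted p from 0.139 to 0.37 by limma. On HFD the genotype difference of Idh2 was -0.13 ± 0.058, or -8.8%, with an adjusted p of 0.294. By limma 0 of 9 members were called on chow, beside 1.06% of all tested genes in either direction, and 0 of 9 on HFD, beside 0.172%. At an unadjusted p under 0.05 there was 1 member, Idh2, on each diet, beside 13.5% of all tested genes on chow and 15.2% on HFD. The interaction, the test of whether the genotype difference changes with diet, was 0.03 for Idh2 with a 95% interval of -0.14 to 0.20 and an adjusted p of 0.999 by limma. None of the 9 was called in the interaction beside 0.0313% of all tested genes, and 0 had an unadjusted p under 0.05, beside 3.76%.

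**Figure D3:**
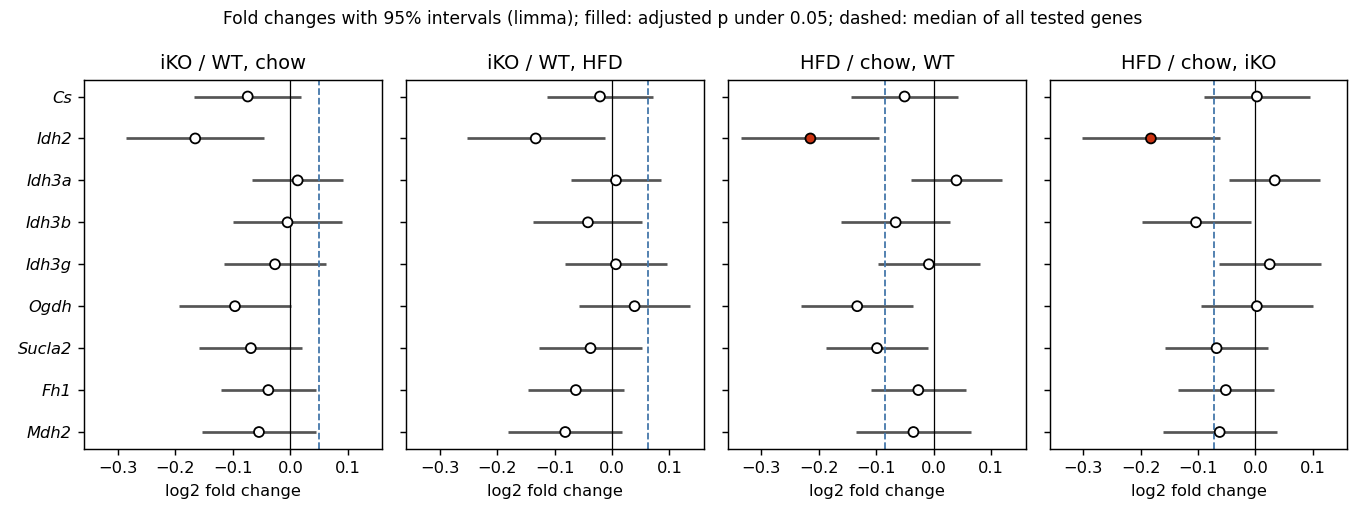
Log2 fold changes of the 9 enzymes with 95% intervals in the 4 pairwise comparisons, filled where the adjusted p is under 0.05; the dashed line is the median of all tested genes. Idh2 lies farthest to the left in each panel, and is filled in the 2 diet panels.

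At the entry of the cycle, Cs was at 461 to 483 FPKM in WT on chow and at 419 to 509 in iKO on chow. With HFD it was at 432 to 473 in WT and at 436 to 457 in iKO. The ranges overlapped within each diet and within each genotype. The genotype difference on chow was -0.07 ± 0.045 (SE) with an adjusted p of 0.476 by limma, and the diet difference in WT was -0.05 ± 0.045 with 0.491. The 95% interval of the latter allows a change from -9.47% to 2.96%.

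The 3 subunits of NAD-linked isocitrate dehydrogenase did not move as one in the point estimates, and none was called with the main settings. Idh3a, the catalytic subunit, had mean FPKM of 206 (WT, chow), 208 (iKO, chow), 212 (WT, HFD) and 213 (iKO, HFD). Its diet difference over both genotypes was 0.04 ± 0.027 (SE) with an adjusted p of 0.327 by limma. Relative to the median gene it was higher, at 0.13 (0.0096) under the median-of-ratios and 0.14 (0.0168) under the upper-quartile scaling, and called in both. Called higher in these settings were 668 of 12758 and 736 of 12762 genes. Within 1 genotype Idh3a was not called under either scaling. The adjusted p by limma was 0.0973 and 0.118 in WT, and 0.154 and 0.229 in iKO. Idh3b, a regulatory subunit, was at 312 to 338 FPKM in iKO on chow and at 274 to 312 in iKO on HFD, with a difference of -0.10 ± 0.046 and an adjusted p of 0.155. Over both genotypes its diet difference was -0.08 ± 0.032 with an adjusted p of 0.0565 by limma. That difference was called with the filter at 5 FPKM and without RT1, RT8, RT12 or RT20 alone, and under neither scaling. Idh3g, the other regulatory subunit, had means of 289, 284, 288 and 289 FPKM in the same order of groups, and its diet difference over both genotypes was 0.01 ± 0.030 with a 95% interval of -3.7% to 5.03%.

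Ratios within a library do not depend on its scaling. Those of Idh2, Idh3b and Idh3g share Idh3a as denominator, so a change of Idh3a enters each and their tests are not independent. With HFD the log2 change of Idh3a was 0.04 in WT and 0.03 in iKO, neither called. The ratio of Idh2 to Idh3a was 4.90 ± 0.407 (SD, n = 5) for WT and 4.33 ± 0.384 for iKO on chow, and 4.10 ± 0.264 for WT and 3.72 ± 0.162 for iKO on HFD. With HFD its geometric mean changed by -16.2% in WT and by -13.9% in iKO, each with p = 0.0159 by a two-sided exact permutation test of 5 libraries against 5 and 0.0847 after adjustment over the 16 tests made on 4 ratios in 4 comparisons. Between genotypes it was -11.6% on chow (exact p = 0.0714, adjusted 0.190) and -9.25% on HFD (0.0238, adjusted 0.0952). The ratio of Idh3b to Idh3a was 1.54 ± 0.0464 in iKO on chow and 1.40 ± 0.0399 in iKO on HFD, and these libraries did not overlap. That exact p was 0.00794, the smallest that 5 against 5 can give, and 0.0847 after adjustment. For WT the same ratio was 1.56 ± 0.0944 on chow and 1.45 ± 0.0632 on HFD (exact p = 0.0714, adjusted 0.190). The ratio of Idh3g to Idh3a had group means of 1.36 to 1.40 and that of Sucla2 to Suclg2 of 3.71 to 3.93, with adjusted p from 0.451 to 1 in the exact tests. By the exact test 0 of the 16 passed at 0.05 after adjustment, and 4 had an unadjusted p under 0.05.

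**Figure D4:**
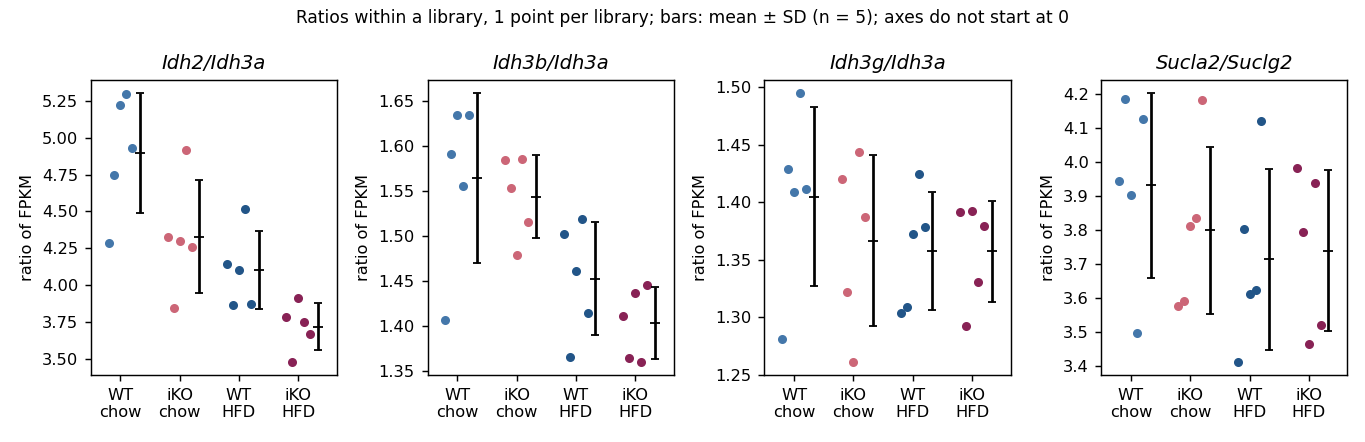
Ratio of FPKM within each library (points) with mean and SD (n = 5) by group, for 4 pairs of genes; the vertical axes do not start at 0. The Idh2 to Idh3a ratio falls from a mean of 4.90 in WT on chow to 3.72 in iKO on HFD, and the iKO chow and iKO HFD libraries are separate for Idh3b to Idh3a.

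Ogdh, the E1 subunit that commits oxoglutarate to succinyl-CoA, had a diet difference in WT that missed the threshold. Its FPKM was 573, 595, 559, 604 and 602 in WT on chow and 523, 505, 580, 559.5 and 508 in WT on HFD, with libraries in the order given for Idh2, and these groups overlapped. In iKO it was 533, 570.2, 516, 601 and 526 on chow and 579, 542, 549.7, 525 and 552 on HFD. The diet difference was -0.13 ± 0.047 (SE), or -8.83%, in WT with an adjusted p of 0.0785 by limma, and 0.0024 ± 0.047 in iKO with 0.983. It was called in WT with array quality weights (-0.12, 0.0462) and without RT16 (0.0424), and under the median-of-ratios and upper-quartile scalings it was -0.03 and -0.02. The difference between these diet effects, the interaction, was 0.14 with a 95% interval of -0.0017 to 0.27 (unadjusted p 0.0527, adjusted 0.999 by limma), so the diet effects are not shown to differ.

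Sucla2 was at 350.3, 381, 352, 339.6 and 377 FPKM in WT on chow and at 338, 345, 332, 332 and 331 in WT on HFD, with libraries in the same order, and 4 of the 5 WT HFD libraries lay below all 5 WT chow libraries. In iKO it was 337, 314, 352, 346 and 367 on chow and 347, 327, 309.6, 331 and 322 on HFD. Its diet difference over both genotypes was -0.08 ± 0.031 (SE), or -5.61%, with an adjusted p of 0.0487 by limma. The direction turned under the median-of-ratios (0.01, adjusted p 0.916) and upper-quartile (0.02, 0.844) scalings. The call was also lost with no filter on low values (0.0841) and without both the variance trend and robust moderation (0.0794). With 1 library left out it was kept only without RT4, RT8, RT11 or RT14, and the adjusted p reached 0.0934. Fh1, which hydrates fumarate to malate, was at 147 to 156 FPKM in WT on chow and at 137 to 154 in iKO on HFD. Its largest difference of the 4 was that of genotype on HFD, -0.06 ± 0.040 with an adjusted p of 0.441 by limma. Mdh2, which regenerates oxaloacetate, was at 699.8 to 740 FPKM in WT on chow and at 651 to 692 in iKO on HFD. Its genotype difference over both diets was -0.07 ± 0.034 with an adjusted p of 0.213 by limma.

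As a group the 9 had a median log2 fold change of -0.05 for iKO against WT on chow, with 8 of 9 below 0, and of -0.04 on HFD, with 6 of 9 below 0, where the medians of all tested genes were 0.05 and 0.06. For HFD against chow the medians were -0.05 in WT (8 of 9 below 0) and -0.05 in iKO (5 of 9), against -0.08 and -0.07 for all genes. The genotype directions held under both scalings for each member below 0, and Idh3a on chow and Idh3a, Idh3g and Ogdh on HFD joined them. The diet directions did not hold, since Cs, Idh3b, Idh3g, Sucla2, Fh1 and Mdh2 in WT and Sucla2, Fh1 and Mdh2 in iKO were above 0 under both scalings. The 4 comparisons share groups in pairs, so their medians are not independent.

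**Figure D5:**
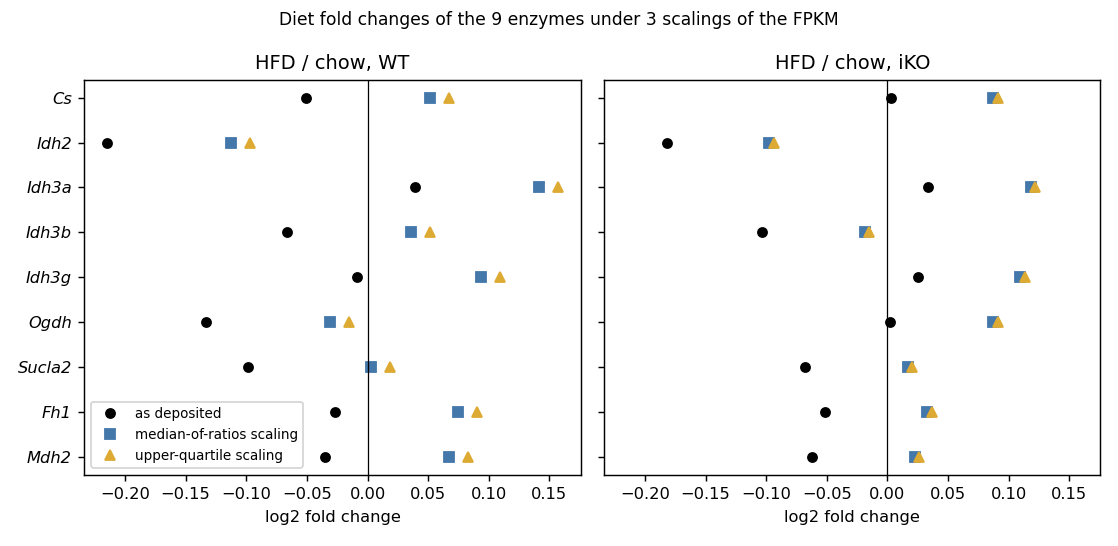
Log2 fold change of HFD against chow for the 9 enzymes with FPKM as deposited and after 2 scalings of the libraries. In WT 8 of 9 are below 0 as deposited, and after scaling Idh2 and Ogdh remain below 0.

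Among the 9 other genes of the mitochondrial cycle, limma called 0 in each of the 4 pairwise comparisons and in the interaction. The number with an unadjusted p under 0.05 was 0 on chow, 0 on HFD, 1 with diet in WT, 1 with diet in iKO and 0 in the interaction. Smallest in p were Suclg1 for genotype on chow (-0.07, adjusted p 0.408) and on HFD (-0.07, 0.389), and Sdhb for diet in WT (-0.12, 0.088) and in iKO (-0.11, 0.134). Over both genotypes Sdhb was the 1 of 9 called lower for diet, beside 23.3% of all tested genes. Its change was -0.11 ± 0.032 (SE), or -7.65%, with an adjusted p of 0.011 by limma. It lost the call under the median-of-ratios (-0.02, 0.804) and upper-quartile (-0.01, 0.917) scalings. For genotype over both diets 0 of 9 were called, beside 5.17% of all tested genes in either direction. An unadjusted p under 0.05 was found for 1, Suclg1 at -0.07 (adjusted p 0.115), beside 25.1% of all tested genes.

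Of the cytosolic and related counterparts, Ogdhl had the largest diet difference. It was at 38.2 to 49.5 FPKM in WT on chow and at 30.7 to 33.9 in WT on HFD, with no overlap, and at 36.1 to 41.7 and 29.0 to 37.8 in iKO. With diet in WT, 9.99% of tested genes were lower without overlap. The log2 fold changes of Ogdhl were -0.38 ± 0.067 (SE), or -23%, in WT (adjusted p 0.00173 by limma) and -0.24 ± 0.067, or -15.5%, in iKO (0.0248). Called lower were 7.27% of all tested genes in WT and 8.36% in iKO. Over both genotypes Ogdhl changed by -0.31 ± 0.048 with an adjusted p of 8.61e-05 by limma, beside 23.3% of all tested genes called lower. This call was kept in each alternative run, with a highest adjusted p of 0.0195. In WT the call was lost under the median-of-ratios (0.05) and upper-quartile (0.087) scalings. In iKO it was kept in 5 of 10 alternatives, with the highest adjusted p at 0.344, and was lost without RT2, RT7, RT11 or RT13, where it reached 0.077. Cytosolic Mdh1, a part of the malate-aspartate shuttle, changed with HFD in iKO by -0.15 ± 0.044, or -9.64% (adjusted p 0.0371 by limma), and over both genotypes by -0.12 ± 0.031 (0.00749). In iKO the Mdh1 call was kept in 5 of 10 alternatives and was lost without RT6, RT7, RT13, RT15, RT17 or RT20 (up to 0.102), and over both genotypes under the median-of-ratios (-0.03, 0.747) and upper-quartile (-0.02, 0.875) scalings. Idh1, Aco1 and Dhtkd1 were not called in any comparison. Dhtkd1, at a low level, had means of 1.68 FPKM in WT and 1.17 in iKO on HFD. These libraries did not overlap, as was so for 0.446% of tested genes in that direction.

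Of the 9 cardiomyocyte markers, 6 were called lower by limma with HFD over both genotypes (Myl2, Mb, Tnnt2, Tnni3, Pln and Myh6), beside 23.3% of all tested genes. The other 3 were not called, Actc1 at -0.08, Ryr2 at 0.10 and Ttn at 0.12. Myl2 changed by -0.34 ± 0.040 (SE, adjusted p 3.63e-06 by limma), Tnnt2 by -0.28 ± 0.040 (3.9e-05) and Myh6 by -0.15 ± 0.038 (0.0067). In a check added after seeing the data, 2 of the 9 were called lower under the median-of-ratios scaling (Myl2 and Tnnt2), beside 657 of all 12758 genes tested. Under the upper-quartile scaling Myl2 was called lower and Ryr2 higher, beside 558 lower and 736 higher of 12762 genes. For genotype over both diets 0 of the 9 were called by limma, beside 5.17% of all tested genes in either direction. The median log2 difference of iKO against WT over both diets was 0.31 for the 8 fibroblast genes and 0.17 for the 5 macrophage genes, with none called. The part of these cells in the genotype difference of Idh2 was not tested. The part of the cardiomyocyte markers in the diet differences of the enzymes was not tested.

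Between libraries of one group the members tended to vary together. After each gene was centred on its group means, the 36 pairs of members had a median Pearson r of 0.39 over 20 libraries, 34 of 36 were above 0, and they ran from -0.27 for Sucla2 and Mdh2 to 0.82 for Cs and Idh2. These values share library and depth and are given as a description. RT7, with the fewest estimated reads, held the highest value of both Cs and Idh2, and r without RT7 was not computed. The share of pairs above 0 among other genes was not computed either. The genes named below were picked as the highest r among 11116 candidates, so their r are high by selection. The r that such a pick gives by chance was not computed. Among 11116 other genes, the one most like Cs was Slc25a12 (r = 0.915, rho = 0.866), a mitochondrial aspartate-glutamate carrier, followed by Tnni3k (0.878, 0.746), a cardiac kinase. Most like Idh2 were Egflam (0.879, 0.833) and Trap1 (0.825, 0.738), the latter a mitochondrial chaperone. For Ogdh they were Ccdc97 (0.908, 0.911) and Mfn2 (0.872, 0.811), the latter a mitochondrial fusion protein. For Sucla2 they were Pdha1 (0.823, 0.868), a subunit of pyruvate dehydrogenase, and Etfa (0.807, 0.717), a subunit of the electron transfer flavoprotein. For Mdh2 they were Cox4i1 (0.95, 0.949) and Uqcr11 (0.941, 0.89), subunits of the respiratory chain, and for Fh1 Atp6v1e1 (0.873, 0.911) and Atp5o (0.828, 0.729), subunits of the vacuolar and the mitochondrial ATPase. The Idh3 subunits had other leading genes, Snrpn (0.862, 0.837) and Slc31a1 (0.853, 0.779) for Idh3a, Dcaf11 (0.827, 0.785) and Mgrn1 (0.819, 0.836) for Idh3b, and Anxa11 (0.861, 0.833) and Mgrn1 (0.861, 0.844) for Idh3g.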

How the data were processed

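Per the labels' protocols, poly(A) RNA of frozen left ventricle was sequenced as single-end reads. The deposited values are FPKM per gene, made by the authors, 1 table per library, with build mm9 and the tools Bowtie2, RSEM and DESeq2 named, without versions, in the submitters' processing notes. Coordinates are those of GENCODE M21 on GRCm38, by identifier, with Cs and Idh3a in another version there. Low FPKM rise in steps worth 1 read, which gave each library's depth; 59.2% to 74.6% of values in 123 to 185 genes were whole to within 0.05 reads.

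FPKM are not counts. Values were taken as log2(FPKM + 1), and genes were tested if 5 or more libraries reached 0.5 FPKM. Limma 3.58.1 in R 4.3.3, with a variance trend and robust moderation, was fitted to 20 libraries and 4 group means, with Benjamini-Hochberg adjustment over 12775 genes and calls at 0.05. It was tested on simulated data. Ratios and figures used pandas 2.3.3, numpy 2.4.6 and matplotlib 3.10.9 in Python 3.11.15. Members and lists were chosen with earlier results of these data known. Named genes were the 9 members, other cycle genes where called or smallest in p, counterparts, and the 2 genes most correlated with each member. Per the labels, the 5 libraries of a group come from 5 mice. Alternatives were the pseudocount, the filter, 2 scalings, no variance trend together with no robust moderation, array weights, fewer libraries and leaving out each library. The values of 1 other cycle gene are not reported here, although it stays in the counts.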

Additional observations from a re-analysis of the deposited data

Results flagged for a closer look

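Of 52 sets of 5 libraries examined for a value far from the rest, 1 was set apart. In WT on chow, Fh1 was at 147 FPKM in RT5, where the other 4 libraries were at 153.7 to 155.6 FPKM. The gap to the next library was 0.779 of the range of the group, against a critical value of 0.71, and chance sets apart about 1 such set in 20.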

How the results depend on the processing

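The choice that moved most values was the scaling of libraries, and here median-of-ratios values stand first and upper-quartile values second. For iKO against WT, Idh3a turned to -0.0419 and -0.0589 on chow, and on HFD Idh3a turned to -0.0652 and -0.0943, Idh3g to -0.0655 and -0.0947 and Ogdh to -0.0329 and -0.0621. For HFD against chow in WT, Cs turned to 0.0513 and 0.067, Idh3b to 0.0356 and 0.0513, Idh3g to 0.0935 and 0.1092, Sucla2 to 0.0032 and 0.0189, Fh1 to 0.0747 and 0.0904, Mdh2 to 0.0668 and 0.0825 and Mdh1 to 0.0089 and 0.0246. In iKO Sucla2 turned to 0.0169 and 0.0206, Fh1 to 0.0326 and 0.0363 and Mdh2 to 0.0224 and 0.026, and over both genotypes Sucla2 turned to 0.01 and 0.0197. Cs with diet in iKO turned to -0.0188 without RT1 and RT4. The cause was not tested.

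Members called with diet in WT went from 1 to 0 with no filter and with both scalings and to 2 with array weights. With diet in iKO the count went from 1 to 0 with no filter, both scalings, no variance trend with no robust moderation, array weights and only the libraries compared. For genotype over both diets it went from 1 to 0 with no filter, no trend with no robust moderation, and without RT1 and RT4. For diet over both genotypes it went from 2 to 1 with no filter and with no trend and no robust moderation (Idh2), to 1 with both scalings (Idh3a, higher) and to 3 with the filter at 5 FPKM (Idh2, Sucla2 and Idh3b). The other cycle genes went from 0 to 1 with array weights for diet in WT and from 0 to 1 with both scalings for genotype over both diets, and from 1 to 2 with array weights for diet over both genotypes.

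With 1 library left out, members called numbered 0 to 1 for genotype on chow, 0 to 2 for diet in WT, 0 to 1 for diet in iKO, 0 to 1 for genotype over both diets and 1 to 3 for diet over both genotypes, and other cycle genes called 0 to 1 for diet in WT. Values that crossed 0 were Cs (-0.0205 to 0.0503) and Ogdh (-0.0196 to 0.0353) with diet in iKO, Idh3g (-0.0222 to 0.0084) and Mdh2 (-0.0606 to 0.0036) with diet in WT, Idh3a (-0.0064 to 0.033) and Idh3b (-0.0256 to 0.0124) for genotype on chow, Idh3a (-0.0071 to 0.0268) and Idh3g (-0.0156 to 0.0335) for genotype on HFD, and the interaction of Idh2 (-0.0082 to 0.0887). The log2 ratio of Idh3g to Idh3a ran from -0.0373 to 0.0113 with diet in iKO and from -0.0145 to 0.0173 for genotype on HFD, and that of Sucla2 to Suclg2 from -0.046 to 0.0124 and from -0.0194 to 0.0486. No paired analysis was possible because the labels give the groups no shared replicate numbers. Without counts, counting error per gene is not known, and 5 libraries a group limit the precision.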
